A study of Mus musculus with 54 samples.

Results

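The cells described here were haematopoietic stem and multipotent progenitor cells recovered from mice 1 or 3 days after transplantation, set against steady state stem cells that had not been transplanted. They were all cells of transplanted origin in the 8 libraries labelled day 1, day 3 or both days together whose predicted type in the deposited annotation was a stem cell class (tHSC) or a multipotent progenitor class (tMPP). This gave 225 of the 268 annotated transplanted cells of those libraries, out of 1031 transplanted and 2301 annotated cells in all. They are called early cells below. The comparison group, iHSC, held the 305 steady state cells sorted through the gates LT_HSC, ESLAM, ESLAMSK, Fraction I or Fraction III.

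The study followed transplanted blood stem cells by single-cell RNA sequencing in 54 libraries of steady state and transplanted mouse cells. Every library came from C57BL/6 mice of 8 to 10 weeks. The early libraries were labelled bone marrow and spleen, except that L87 was labelled bone marrow, and their transplanted cells carried the sort label GFPP. L83, L84 and L87 were collected on day 1, L79, L85 and L89 on day 3, and L80 and L88 pooled both days without giving the day of a cell. Of the 12 libraries that held iHSC cells, 6 were from bone marrow by their labels (L1, L14, L15, L74, L76, L81) and 6 from marrow together with spleen. The labels did not give the population that had been transplanted, the treatment of the recipients or the animals behind each library, so the spread between libraries may be technical.

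Most adult haematopoietic stem cells rest outside the cell cycle, and multipotent progenitors divide more often. After transplantation into a conditioned host, stem cells lodge in the marrow and spleen and are driven into division and differentiation. The iHSC gates enrich for resting stem cells through surface markers such as CD150, CD48, EPCR and SCA-1, whereas cells recovered after transplantation can be found only through the donor's label.

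The counts of a group's cells were added up within each library that held 5 or more of them, and libraries served as replicates. L87 gave 2 early cells and no sum, which left 7 early libraries with 223 cells and 1030199 to 10125084 counts each, against 12 iHSC libraries with 517741 to 14674872 counts. The median early cell had 116308 counts over 5034 genes, and the median iHSC cell had 121266 counts over 4345 genes. Levels per library are given as CPM (counts scaled to 1000000 per library) after TMM scaling of the library totals. TMM corrects these totals on the assumption that most genes do not change. Levels over all cells of a group or type, and the sums over 6 macrophage genes, are CPM without TMM scaling. A gene was called when its adjusted p from edgeR's quasi-likelihood test was under 0.05, and log2 values are early minus iHSC unless stated otherwise. In such sums, fewer cells that express a gene and less of its RNA per cell cannot be told apart.

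Libraries differed in sex-linked genes, partly along the groups. Y-linked counts were present in most early libraries but in few iHSC libraries, so this difference and transplantation cannot be fully told apart. With the Y-linked level as a covariate, 19 of the 63 called genes named by rule missed the threshold. The iHSC libraries L1, L14 and L15 carried Y-linked counts with Xist, the RNA of the inactive X chromosome, at 0 to 3.88 CPM. The other 9 iHSC libraries had Xist at 23.3 to 534 CPM with Y-linked genes at or near 0. Among the early libraries, L79, L80, L84, L85 and L88 carried Y-linked counts with Xist at 7.38 to 87.3 CPM. L83 carried both, with Xist at 236 CPM, and L89 had Xist at 231 CPM and no Y-linked count. Counts of called genes are therefore also given without L1, L14 and L15, or with the Y-linked level as a covariate, where that changes them by over 1.5 times.

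By predicted type, the early cells were mostly progenitors, whereas the iHSC cells were all predicted stem cells. The early cells comprised 85 tMPP1, 81 tMPP2, 27 tMPP5, 21 tHSC, 10 tMPP4 and 1 tMPP3 cell, so that 9.33% were predicted stem cells. Each of the 7 summed libraries held tMPP1 and tMPP2 cells, and each held 1 to 6 tHSC cells. Another 43 annotated transplanted cells of these libraries were left out, namely 20 tME, 15 tGM, 7 tLym and 1 tCP cell, and 28 of them came from L88. The comparison with iHSC therefore set libraries made mainly of predicted progenitors against libraries of predicted stem cells.

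**Figure D1:**
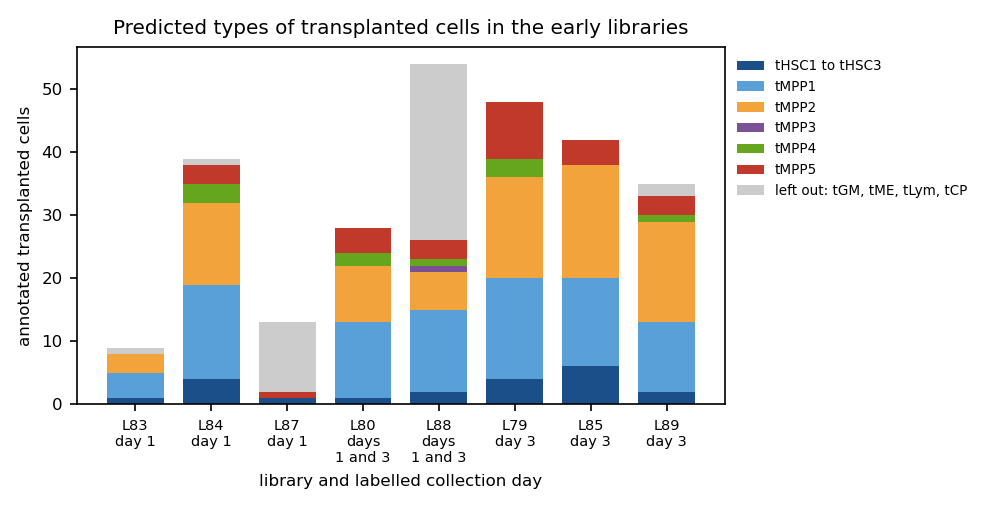
Number of annotated transplanted cells of each predicted type (stacked bars) in each early library. Grey marks the tGM, tME, tLym and tCP cells, which were left out of the early cells. tMPP1 and tMPP2 make up most early cells of the 7 summed libraries, and tHSC cells number 1 to 6 in each. L87 holds 2 early cells among 13 annotated transplanted cells.

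Stem cell genes were counted in the cells that carry these labels, as a description. This is no independent check of the labels. Predicted type was itself assigned from expression, and EPCR is among the markers of the iHSC gates. Procr, which encodes the stem cell surface receptor EPCR, was counted in 158 of 225 early cells (70.2%) and in 170 of 305 iHSC cells (55.7%) after every cell was thinned to 20000 counts, and in 84% and 75.1% without thinning. Hlf, which encodes a transcription factor of stem cell maintenance, was counted in 158 early cells (70.2%) and in 243 iHSC cells (79.7%) at that depth. Summed over the steady state B, T and NK cells and granulocytes of the series, Procr stood at 0 to 2.23 CPM, against 172 CPM over all early cells and 155 CPM over all iHSC cells. Transcripts of mature lineages were present as well: summed levels were 307 to 4988 CPM for the neutrophil list and 546 to 1863 CPM for the monocyte and macrophage list in the early libraries, and up to 43221 and 5174 CPM in iHSC libraries. Pax5, which defines B cells, was at 0 in the early libraries, the 1 gene of the 12 in the B cell list that was. The list summed to 144 to 736 CPM in early and 135 to 2804 CPM in iHSC libraries. Its member Cd79b was at 19.9 to 55.5 CPM in the early libraries. The globin genes are listed at 0 in all early and iHSC libraries, as is the glycolysis gene Eno1, so these zeros were not read as absence.

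Of 10536 genes tested, 291 were called between early and iHSC cells. The early cells had 147 of them higher (1.40% of genes tested) and 144 lower (1.37%), and the median log2 difference over all genes was -0.12. The genes that rose included genes of mitosis and DNA replication and genes known from tissue macrophages. The genes that fell included 10 immediate early genes, with 5 genes each of the stem cell identity and quiescence lists. In 51 genes every early library lay above every iHSC library, and in 20 every early library lay below. DESeq2 called 219 higher and 400 lower, and limma's voom called 664 higher and 218 lower, with the median of all genes moved up by 0.30. In the predicted tHSC cells alone, taken from early libraries with 2 to 6 such cells, 23 genes were called, 9 higher and 14 lower. With so few cells per sum, a list without a call in that fit does not show that its genes were unchanged. The counts and medians of gene lists below are read against the shares over all genes.

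**Figure D2:**
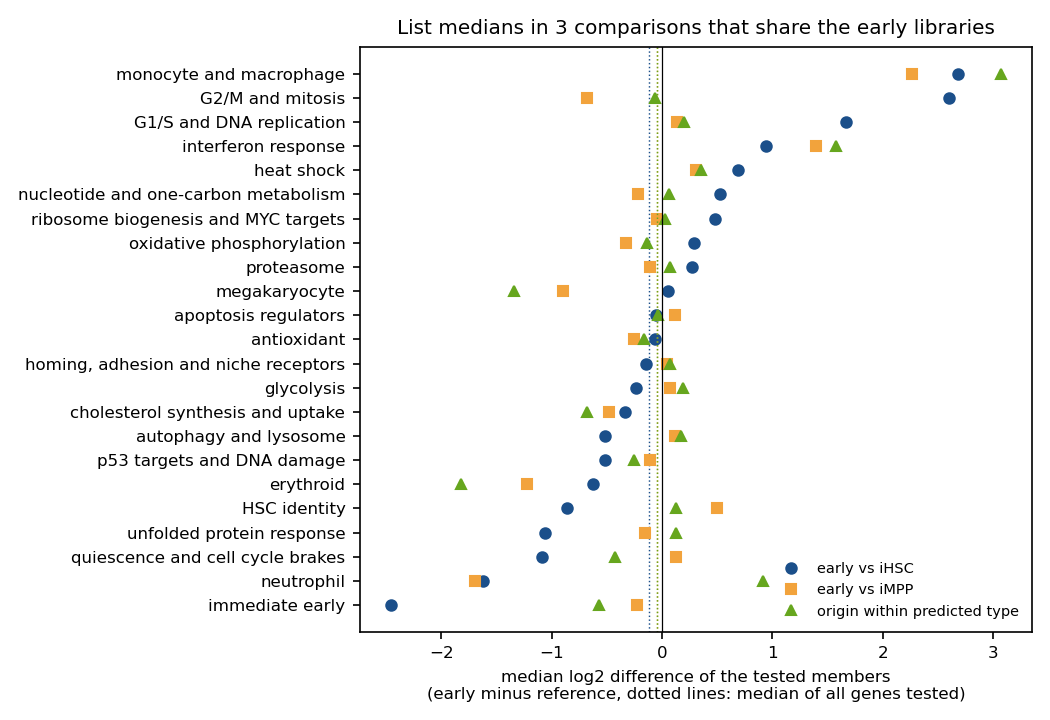
Median log2 difference of each gene list with at least 10 tested members, early cells minus iHSC, minus iMPP and within predicted type (3 point styles), with dotted lines at the median of all genes. The G2/M list stands highest against iHSC except for the macrophage list, and lies below 0 in both other comparisons.

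Genes of the G2 phase and mitosis were higher in the early cells throughout the list. Of 30 genes, 21 rose, none fell, and all 30 had a log2 difference above 0, with a median of 2.60. They included the cyclin genes Ccnb1, Ccnb2 and Ccna2, their kinase partner Cdk1, the topoisomerase Top2a, the spindle checkpoint genes Bub1 and Bub1b, and the kinetochore genes Cenpe, Cenpf and Nuf2. The promoters of 4 of them are shown because many genes of this phase share short promoter letters: CCAAT, the letters bound by NF-Y, and TTTGAA, the core of the cell cycle homology region bound by the MuvB complexes. Each run is the 250 bases before the gene's start in the RefSeq table of GRCm38.p6, 5′ to 3′ on the gene's strand, and capitals mark CCAAT or TTTGAA on either strand (ATTGG and TTCAAA on the other):
Ccnb2 (chr9:70421555-70421804, minus strand): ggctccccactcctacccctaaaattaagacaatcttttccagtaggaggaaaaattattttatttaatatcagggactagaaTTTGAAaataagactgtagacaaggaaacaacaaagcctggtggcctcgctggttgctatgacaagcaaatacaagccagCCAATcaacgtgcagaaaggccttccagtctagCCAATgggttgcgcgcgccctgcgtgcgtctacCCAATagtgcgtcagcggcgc
Top2a (chr11:99024190-99024439, minus strand): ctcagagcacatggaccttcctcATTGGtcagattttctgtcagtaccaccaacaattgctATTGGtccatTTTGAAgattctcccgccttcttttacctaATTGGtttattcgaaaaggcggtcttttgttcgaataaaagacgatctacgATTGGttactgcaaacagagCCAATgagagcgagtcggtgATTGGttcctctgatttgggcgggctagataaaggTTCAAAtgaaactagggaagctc
Ube2c (chr2:164769679-164769928, plus strand): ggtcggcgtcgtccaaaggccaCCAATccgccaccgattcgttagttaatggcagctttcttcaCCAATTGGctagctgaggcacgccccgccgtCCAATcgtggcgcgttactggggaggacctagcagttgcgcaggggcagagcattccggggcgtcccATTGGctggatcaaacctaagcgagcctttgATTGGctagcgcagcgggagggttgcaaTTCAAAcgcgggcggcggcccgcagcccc
Cdk1 (chr10:69352913-69353162, minus strand): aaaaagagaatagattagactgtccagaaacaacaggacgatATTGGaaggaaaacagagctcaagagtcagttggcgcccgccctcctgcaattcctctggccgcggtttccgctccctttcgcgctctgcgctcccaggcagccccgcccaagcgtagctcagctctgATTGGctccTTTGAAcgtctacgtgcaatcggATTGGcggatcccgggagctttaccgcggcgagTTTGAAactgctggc

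These 4 were the called G2/M genes with both letters and the smallest p. RefSeq promoters matched 18 of the 21 called G2/M genes. CCAAT was present in 16 of the 18 (88.9%) and at least 2 copies in 11 (61.1%), against 34.5% and 10.5% of 27025 genes with a promoter in the table. TTTGAA was present in 7 of the 18 (38.9%), all of which also held CCAAT, against 16.3% of all genes. In Ube2c a CCAAT and an ATTGG overlap. Of 12 matched G1/S genes that rose, 8 held CCAAT (66.7%) and 2 held TTTGAA (16.7%). Of 8 matched immediate early genes that fell, 2 held CCAAT (25%) and 1 held TTTGAA (12.5%). Such a match describes the letters of the window and is not a measured binding site.

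Birc5 (chromosome 11, 117849251 to 117855743 on GRCm38), which encodes the chromosomal passenger protein survivin, was among the called genes whose groups did not overlap. Its level was 119 to 361 CPM with a median of 242 in the 7 early libraries, and 5.86 to 107 CPM with a median of 26.7 in the 12 iHSC libraries. The lowest early library lay just above the highest iHSC library, and the log2 difference was 2.62 (SE 0.43, adjusted p = 0.000621). Cenpe, the kinetochore motor, stood at 33.8 to 159.7 CPM (median 64.6) in early and 0 to 19.3 CPM (median 4.32) in iHSC libraries, a difference of 3.7 (SE 0.61, adjusted p = 0.000621). Bub1b, a spindle checkpoint kinase, differed by 3.58 (SE 0.6, adjusted p = 0.000702) and did not overlap either. The condensin gene Ncapg was at 16 to 29.6 CPM in early libraries and at 0 to 5.83 CPM in iHSC libraries.

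Ccnb2, the B-type cyclin whose promoter is shown above, ranged from 13.2 CPM in L84 to 364 CPM in L79, with a median of 182, against 3.49 to 75.7 CPM (median 13.5) in iHSC. L84, a day 1 library, thus lay within the iHSC range while the other 6 early libraries lay above it. The log2 difference was 3.13 (SE 0.52, adjusted p = 0.000621). Mki67, the proliferation antigen Ki-67, rose by 2.28 (SE 0.55, adjusted p = 0.0141), and without L85 the difference was 1.93 with an adjusted p of 0.0760. Cks2, Aurka, Plk1 and 6 other members of the list did not pass the test, with log2 differences of 0.76 (Kif20a) to 2.4 (Ttk). In the predicted tHSC cells alone, 0 of 25 tested G2/M genes were called and the median was -0.65, from sums of few cells. Counted per cell at equal depth, 57.1% of the 21 early tHSC cells and 35.7% of the 305 iHSC cells had at least 5 G2/M genes.

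Genes of DNA replication rose as well, by smaller amounts. Of 30 genes of the G1/S list, 14 rose and none fell, and the median was 1.66. They included 5 subunits of the replicative helicase (Mcm2 to Mcm6), the licensing factor Cdt1, the sliding clamp Pcna, the ligase Lig1, the maintenance methyltransferase Dnmt1, and the nucleotide synthesis genes Rrm1, Rrm2, Tyms and Tk1. Mcm2 (chromosome 6, 88883474 to 88898780) was at 109.7 to 275 CPM (median 160.5) in early and 9.2 to 94.3 CPM (median 47.9) in iHSC libraries, with no overlap and a log2 difference of 1.77 (SE 0.36, adjusted p = 0.00319). Lig1 also separated the groups, at 157 to 404 against 17.3 to 148 CPM (1.82, SE 0.35). Pcna overlapped at 403 to 817 against 134 to 471 CPM and differed by 1.12 (SE 0.23, adjusted p = 0.00432).

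Called G1/S genes numbered 4 with the Y-linked level as a covariate, with a median of 1.62. They numbered 8 without L79, L80 or L84, 7 without L89 and 9 without L15, and 0 of 29 in predicted tHSC cells alone, where the median was 0.98. Summed over the list, G2/M genes took 1467 to 6195 CPM of the early libraries and 270.3 to 1432 CPM of the iHSC libraries. G1/S genes took 3020.0 to 5995 and 935 to 2810.1 CPM. Neither sum overlapped between the groups.

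**Figure D3:**
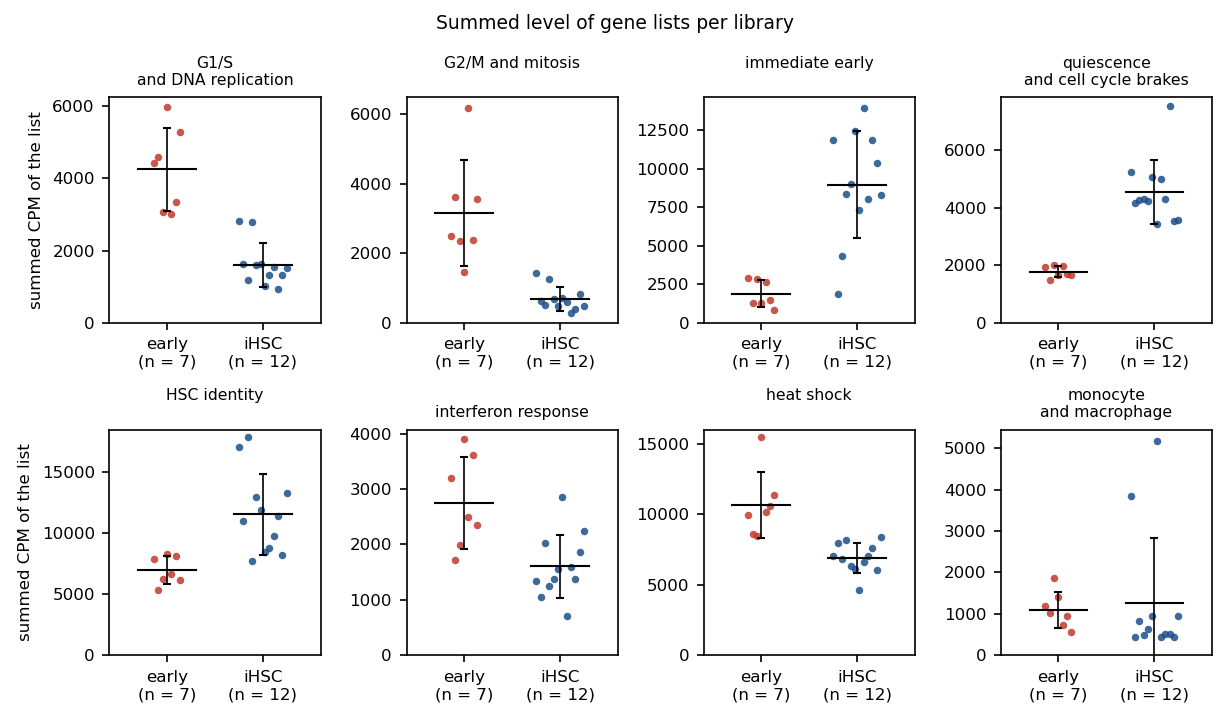
Summed CPM of gene lists in each of the 7 early and 12 iHSC libraries (points), with mean and SD (bars). The G2/M and G1/S sums of all early libraries lie above those of all iHSC libraries, and the sums of the quiescence list lie below.

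Counted per cell, more early than iHSC cells held cell cycle transcripts. With every cell thinned to 20000 counts, 79.9% ± 16.8 (SD, n = 7 libraries, 55.3 to 100%) of early cells had at least 5 of the 30 G2/M genes, against 37.6% ± 24.9 (n = 12, 6.67 to 83.3%) of iHSC cells. The difference of 42.3 percentage points had a two-sided exact permutation p of 0.00115 (0.00191 after Benjamini-Hochberg adjustment over 2 shares). For the G1/S genes the shares were 94.3% ± 8.69 and 70.8% ± 16.6, a difference of 23.4 points (exact permutation p = 0.00191, adjusted 0.00191). Both ranges overlapped: in 1 iHSC library, L50, 83.3% of cells had the G2/M genes. Without thinning the mean shares were 94.2% and 86.8% for G2/M (exact p = 0.593) and 99.7% and 98.3% for G1/S (exact p = 0.772).

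The threshold of 5 genes does not separate cycling from resting cells on its own. Steady state T cells of library L53 passed it for the G2/M genes in 68.2% (CD4) and 84.2% (CD8) of cells, whereas those of L2 passed in 8.33% and 4.35%. Splenic B cells passed in 0 of 19 cells of L3 (95% Wilson interval 0 to 16.8%) and in 23.8% of L54, and NK cells in 0% and 15% of the same libraries. Shares of T, B and NK cells were thus library-dependent in cell types of the same name. The part of this in the shares of early and iHSC cells was not tested. Steady state granulocytes passed for the G2/M genes in 95.2% (L5) and 100% (L43) of cells. For the G1/S genes they passed in 90.5% and 90%. By predicted type, 57.1% of early tHSC, 57.6% of tMPP1, 60% of tMPP4, 98.8% of tMPP2 and 100% of tMPP5 cells had the G2/M genes.

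**Figure D4:**
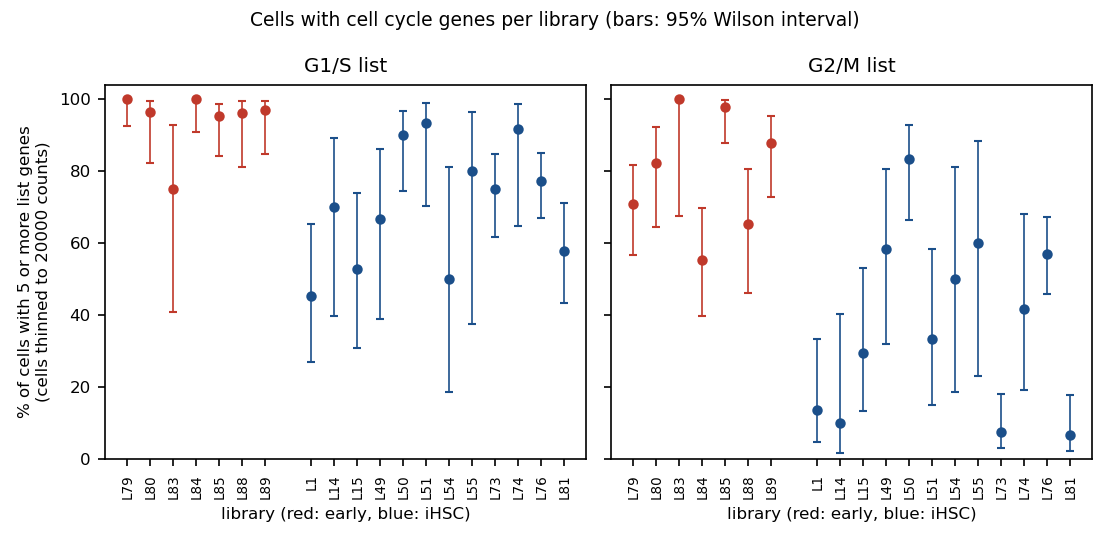
Percent of cells with at least 5 G1/S genes (left) or G2/M genes (right) after thinning to 20000 counts, per library, with 95% Wilson intervals that cover counting error only. Early libraries lie at 55.3 to 100% for G2/M, and iHSC libraries spread from 6.67 to 83.3%.

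Immediate early genes, which are switched on within minutes by growth factors or stress, were lower in the early cells. Of 20 tested, 10 fell, none rose, and every log2 difference was below 0, with a median of -2.46. The 10 were the AP-1 genes Fos, Fosb, Junb and Jund, the zinc finger factor Egr1, the nuclear receptor Nr4a1, Ier2, the phosphatase Dusp1, the mRNA decay factor Zfp36 and the antiproliferative gene Btg2. Fos (chromosome 12, 85473890 to 85477273) was at 54.3 to 540.0 CPM (median 111) in early libraries and at 294 to 4912 CPM (median 2242) in iHSC libraries. L14 was the 1 iHSC library within the early range, and the log2 difference was -3.44 (SE 0.45, adjusted p = 3.87e-05).

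Junb was at 24.9 to 142 CPM (median 93.9) against 250.1 to 884 CPM (median 303), a difference of -2.29 (SE 0.33, adjusted p = 0.000164). Ier2 was at 163 to 402 (median 245) against 476 to 3195 CPM (median 972), a difference of -2.07 (SE 0.32). Neither gene overlapped between the groups. Btg2 differed by -2.93 (SE 0.5), Zfp36 by -2.47 (SE 0.4) and Nr4a1 by -3.12 (SE 0.57). Jun itself overlapped widely (42.8 to 408 against 45.8 to 1164 CPM), and its difference of -1.3 did not pass (adjusted p = 0.169). With all annotated transplanted cells of the early libraries in the sums, 5 of 19 immediate early genes fell, with a median of -1.46. In predicted tHSC cells alone 2 of 20 fell, with a median of -1.36.

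**Figure D5:**
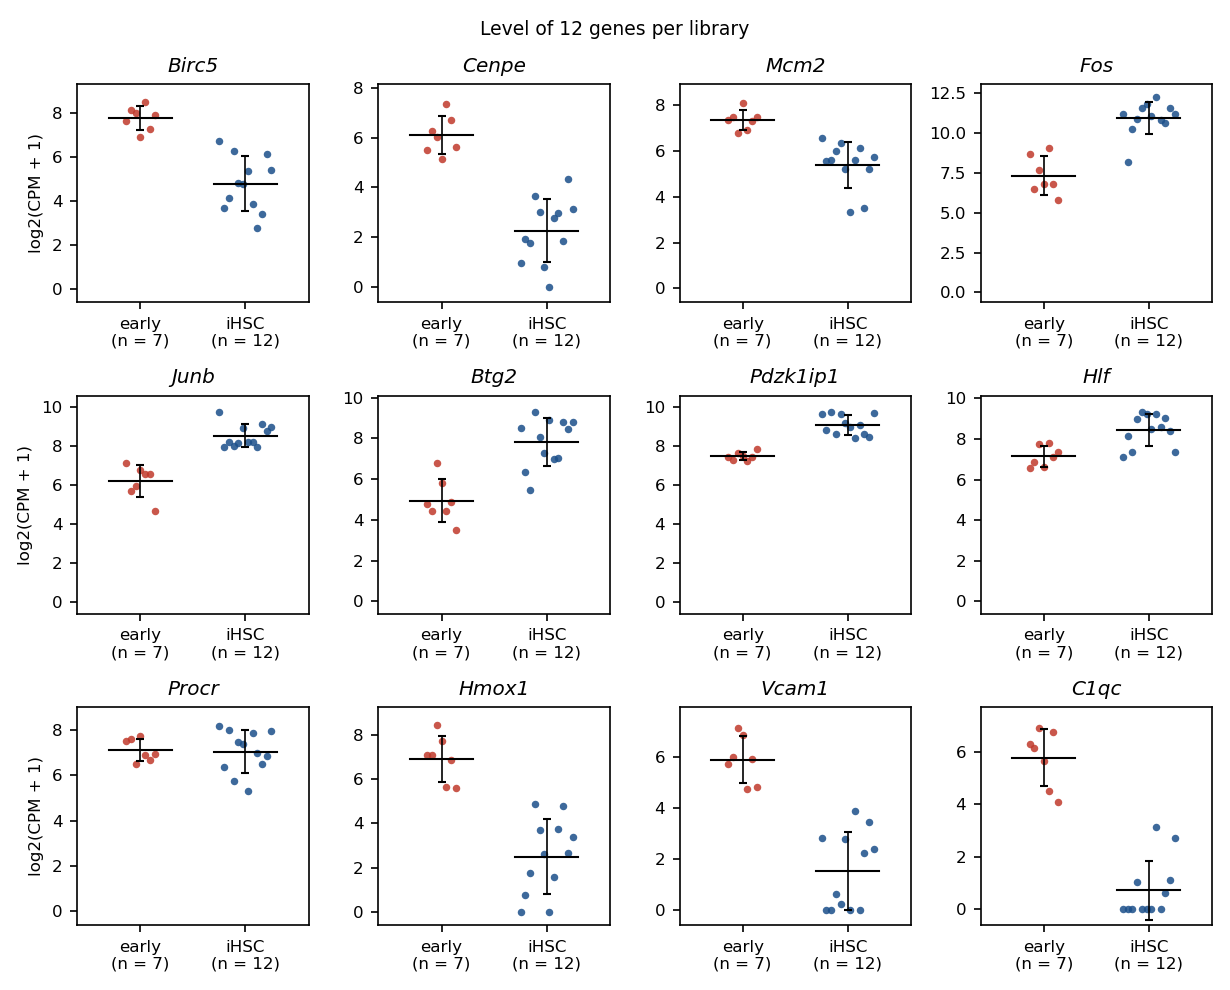
Level of 12 genes, as log2(CPM + 1), in each of the 7 early and 12 iHSC libraries (points), with mean and SD (bars). Birc5, Cenpe and Mcm2 are higher and Junb and Pdzk1ip1 lower in every early library, Procr overlaps, and Hmox1, Vcam1 and C1qc are higher in every early library, with C1qc at 0 in 7 iHSC libraries.

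Some genes that restrain the cell cycle in resting stem cells were lower. Of 21 tested in the quiescence list, 5 fell and none rose, with a median of -1.09: Btg2, the thioredoxin inhibitor Txnip, the transcription factors Egr1 and Nfix, and the growth arrest RNA Gas5. Egr1 and Btg2 are also immediate early genes. Txnip was at 165 to 283 CPM (median 231) in early and 269 to 1486 CPM (median 754) in iHSC libraries and fell by 1.71 on the log2 scale (SE 0.27, adjusted p = 0.000491). The CDK inhibitor genes Cdkn1a (0.19), Cdkn1b (-1.13) and Cdkn1c (-1.36) did not pass. The list summed to 1477 to 2007 CPM in early and 3433 to 7525 CPM in iHSC libraries, with no overlap.

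Most stem cell identity genes stood lower in the early cells, and few of them passed the test. Of 29 tested, 5 fell and none rose, and the median was -0.86. Only 5 of the 29 had a log2 difference above 0. The list summed to 5291 to 8264 CPM in early and 7700 to 17840 CPM in iHSC libraries, which overlapped. Pdzk1ip1 (chromosome 4, 115088708 to 115093899), whose promoter activity marks stem cells, was at 149.9 to 229.6 CPM (median 176) in early and 339 to 882 CPM (median 527) in iHSC libraries, with no overlap and a difference of -1.68 (SE 0.25, adjusted p = 0.000164). Hlf was at 93 to 225 against 139 to 638 CPM and differed by -1.38 (SE 0.32, adjusted p = 0.00999). Ifitm1, an interferon-inducible membrane gene abundant in stem cells, differed by -1.51, Trim47 by -1.81 and Sult1a1 by -2.68.

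Other stem cell genes did not pass the test. Procr was at 89.3 to 209.7 CPM (median 121) in early and 38.6 to 292 CPM (median 145) in iHSC libraries, so the early libraries lay inside the iHSC range (-0.1, SE 0.34, adjusted p = 0.951). Ly6a, which encodes SCA-1, differed by -0.24 (SE 0.34, adjusted p = 0.834), Gata2 by 0.07 (SE 0.35) and Mecom by -0.67 (SE 0.49). Mllt3, a stem cell maintenance factor, missed the threshold at -1.13 (SE 0.33, adjusted p = 0.0585). Without L1, L14 and L15, 8 of 29 identity genes fell, with a median of -0.82. In predicted tHSC cells alone 0 of 29 were called, with a median of -0.45.

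The stem cell genes varied among the early cells by predicted type. Over all cells of a type, Hlf was at 201 CPM in tHSC, 199 in tMPP1, 126 in tMPP2, 69.5 in tMPP4 and 93.3 in tMPP5. Mecom was at 121, 78, 67.7, 32.1 and 17 CPM in the same order. Mki67, a G2/M gene, was highest in tMPP2 at 446 CPM and stood at 9.41 CPM in tHSC. These are sums over cells of several libraries, given without a test, and predicted type was itself assigned from expression.

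Interferon-induced genes were higher in part. Of 26 tested, 3 rose and none fell, with a median of 0.95: Irf7, the factor that amplifies the type I interferon response, Bst2 (tetherin) and the GTPase gene Igtp. Bst2 was at 178 to 436 CPM (median 316) in early and 17.5 to 247 CPM (median 108) in iHSC libraries, a difference of 1.5 (SE 0.35, adjusted p = 0.0112). Irf7 differed by 1.69 (SE 0.45, adjusted p = 0.0302) and Igtp by 1.47 (SE 0.41, adjusted p = 0.0437). The count was 1 without L79, L84, L88, L89 or L73, 6 without L54, and 0 with the Y-linked covariate, where the median was 0.85.

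Some chaperone genes rose. Of 19 heat shock genes, 4 rose and none fell, with a median of 0.69. They were the HSP90 genes Hsp90aa1 and Hsp90ab1, the co-chaperone gene Dnaja1, and the mitochondrial chaperonin Hspd1. Hsp90ab1 (chromosome 17, 45567775 to 45573271) was at 2516 to 3664 CPM in early and 1235 to 2361 CPM in iHSC libraries, without overlap (0.75, SE 0.15, adjusted p = 0.00215). The stress-inducible Hspa1a and the abundant Hspa8 did not pass (1.28 and 0.22). The Hspd1 call ended in 13 of 19 fits without 1 library and the Dnaja1 call without L84, L88 or L89. The list's count was 2 without each of L84, L88 and L89, and 2 with the Y-linked covariate.

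Among genes of the unfolded protein response, 2 of 19 fell and none rose, with a median of -1.06. Atf4, the factor that drives amino acid stress genes, was at 112 to 211 CPM in early and 227 to 627 CPM in iHSC libraries, without overlap (-1.16, SE 0.24, adjusted p = 0.00462). Dnajb9, a chaperone of the endoplasmic reticulum, fell by 1.85 on the log2 scale (SE 0.43). Without L1, L14 and L15 the count was 4, with a median of -0.66. It was also 4 without each of L14, L49, L51 and L73, and it was 1 with the Y-linked covariate. Of 25 ribosome biogenesis genes, Ncl and Nolc1 rose (0.72 and 1.5), and Myc did not pass (-0.3, adjusted p = 0.789). Both calls ended without L79, L84 or L85, and with the Y-linked covariate.

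Several lists of metabolism and stress gave no called gene against iHSC. These were p53 targets (0 of 19), glycolysis (0 of 20), oxidative phosphorylation (0 of 24), cholesterol synthesis (0 of 21), proteasome (0 of 21), nucleotide metabolism (0 of 21) and apoptosis regulators (0 of 18). Their medians lay between -0.51 and 0.52. Other settings called some of them, and these settings also called more genes in all. Limma on mean log2 values had 17 of 24 oxidative phosphorylation, 15 of 21 nucleotide metabolism, 11 of 21 proteasome and 7 of 20 glycolysis genes higher. Over all 10536 genes it called 1365 higher and 124 lower, with the median moved up by 0.22. With iHSC libraries from L73 on, 10 of 24 oxidative phosphorylation genes were higher, where 361 genes in all were higher and 264 lower. DESeq2 called 5 of 21 cholesterol genes lower, where 400 genes in all were lower. Of 24 genes of homing and adhesion, Vcam1 alone was called, and the marrow retention receptor Cxcr4 was low in both groups (2.2 to 17.1 and 0 to 42.3 CPM).

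Genes known from tissue macrophages were detected in the early progenitor cells at levels above iHSC. Of 18 tested genes of the monocyte and macrophage list, 7 rose, 2 fell, and the median was 2.68. The 7 were the complement genes C1qa and C1qc, Cd68 of lysosomes, the adhesion receptor Vcam1, Cd5l, and 2 genes of iron and haem recycling, Slc40a1 and Hmox1. C1qc (chromosome 4, 136889804 to 136893065) was at 16.2 to 117 CPM (median 70.5) in early libraries and at 0 in 7 of 12 iHSC libraries, with at most 7.76 CPM in L55 (5.92, SE 0.95, adjusted p = 0.000492). Vcam1 was at 25.6 to 141 CPM (median 60) against 0 to 13.6 CPM (median 2.1), a difference of 4.31 (SE 0.84). Hmox1, which encodes haem oxygenase 1, was at 46.8 to 345 CPM (median 136) against 0 to 28.4 CPM (median 5.24), a difference of 4.06 (SE 0.66, adjusted p = 0.000585).

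None of these 3 genes overlapped between the groups. The lysozyme genes Lyz1 (-2.26) and Lyz2 (-1.89), markers of monocytes and granulocytes, fell. The summed list did not separate the groups, at 546 to 1863 CPM in early and 429 to 5174 CPM in iHSC libraries, with L54 and L1 highest among iHSC. Of the 18 tested members, 16 had a log2 difference above 0. The next 3 macrophage genes, chosen after their values were seen, did not pass or were too low to be tested. Adgre1, which encodes F4/80, was at 4.26 to 35.7 CPM in early libraries and did not pass (2.97, adjusted p = 0.197). Mertk was at 0 to 1.74 CPM and Timd4 at 0 to 1.96 CPM there.

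Over 6 of these genes (C1qa, C1qb, C1qc, Adgre1, Vcam1 and Cd5l), 187 of 225 early cells had a count (83.1%), against 68 of 305 iHSC cells (22.3%). After thinning to 20000 counts the shares were 52.4% and 10.5%. By library the thinned share was 37.5 to 62.5% (median 53.6%) in early and 0 to 80% (median 8.33%) in iHSC libraries, where the maximum was L55 with 5 cells. A small number of cells held much of the signal, since 23 early cells and 2 iHSC cells had over 1000 CPM of these genes. Without those cells the sum was 40.9 to 188 CPM (median 97.4) in early and 0 to 59.9 CPM (median 5.88) in iHSC libraries. One cell gave 93.3% of these counts in L83, 73.1% in L88 and 70.7% in L85. At equal depth, 38.1% of tHSC, 40.7% of tMPP5, 50% of tMPP4, 52.9% of tMPP1 and 59.3% of tMPP2 cells had a count (61.9, 92.6, 70, 78.8 and 91.4% without thinning). The source of these counts was not tested.

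A few markers of other blood lineages were called against iHSC. In the neutrophil list, 1 of 16 tested genes rose (Mmp8) and 1 fell (Prtn3), with a median of -1.62. Its summed level was 307 to 4988 CPM in early and 404 to 43221 CPM in iHSC libraries, where L1 and L54 were highest. With iHSC libraries from L73 on, 6 of 16 rose and 2 fell, with a median of 4.08, and with all annotated transplanted cells the median was 1.74, so the direction of the list depends on these choices. Prtn3, a granule protease, was at 87.6 to 279 against 119 to 1009 CPM (-1.63, adjusted p = 0.00264), whereas the Mmp8 call ended without L88 or 4 of the iHSC libraries, and with the Y-linked covariate. In the erythroid list the carbonic anhydrase genes Car1 and Car2 fell, 2 of 10 tested. Car1 was at 0 in most early libraries and 16.2 CPM in L88, against 0 to 1339 CPM (median 27.7) in iHSC, and its call ended in 7 fits without 1 library and with the Y-linked covariate. The Car2 call ended in 5 such fits, without L80, L83, L84, L85 or L88, and neither gene was called without L49 and L55. In the B cell list Cd79b, a part of the B cell receptor, fell (-1.65, adjusted p = 0.0475), 1 of 4 tested, with a median of -1.70. That call ended in 13 of 19 fits without 1 library and with the Y-linked covariate. In the antigen presentation list Bst2 was the 1 called gene of 7, and it missed the threshold with that covariate. No gene of the megakaryocyte (0 of 17), mast cell (0 of 2), lymphoid priming (0 of 7), T cell (0 of 1), NK cell (0 of 2) or stromal lists (0 of 5) was called.

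Outside the lists, Erdr1 fell and Pigr rose. Erdr1 was at 1.92 to 16.4 CPM (median 8.99) in early and 37 to 387 CPM (median 252) in iHSC libraries, without overlap (-4.73, SE 0.5, adjusted p = 1.1e-06). Pigr, the polymeric immunoglobulin receptor, was at 373 CPM in L80, 33.2 in L83 and 30.9 in L84 but at 2.68 to 3.77 CPM in the other 4 early libraries. Without L80 its difference of 6.04 became 3.67 and missed the threshold (adjusted p = 0.0776), as it did with the Y-linked covariate. Cish, a target of cytokine signalling through STAT5 that restrains it, was at 11.1 to 71.3 against 16.2 to 323 CPM and fell by 2.70 on the log2 scale (SE 0.46, adjusted p = 0.000919). The nuclear receptor coactivator gene Pnrc1 fell by 2.19 (SE 0.31) without overlap, at 43.4 to 153 against 154 to 618 CPM.

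The early cells were also compared with steady state progenitors. The iMPP group held 508 cells of the 9 gates labelled iMPP, in 17 libraries, all of them predicted tMPP, and shares the early libraries with the comparison above. The median iMPP cell had 339200 counts over 6571.5 genes, against 116308 counts over 5034 genes in the median early cell. The part of this depth in the differences was not tested. Of 11456 genes tested, 170 were higher (1.48%) and 191 lower (1.67%) in early cells, with a median of -0.05. Cell cycle genes did not stand above iMPP: of 30 G2/M genes none rose, 3 fell (Ube2c, Aurkb and Cks2) and the median was -0.68, and of 30 G1/S genes none was called, with a median of 0.14. At equal depth, 86.5% ± 18.3 (SD, n = 17 libraries) of iMPP cells had the G2/M genes. Immediate early genes gave 0 of 19 called and a median of -0.23.

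Stem cell identity genes stood higher in early cells than in iMPP for 2 of 29, Procr and Ly6a. Procr was at 0 to 73.3 CPM (median 9.88) in iMPP libraries and differed by 2.77 (adjusted p = 0.0252), and Ly6a by 1.97 (adjusted p = 0.014). Cd34 (-1.76), Flt3 (-3.59) and Cd48 (-2.57), surface genes of multipotent progenitors, were lower in the early cells, with adjusted p of 0.0122, 0.0401 and 0.0346. So were the granulocyte genes Mpo (-7.09) and Elane (-9.92) and the lymphoid gene Dntt (-10.36), which stood at or near 0 in most early libraries. The iMPP cells had been sorted through surface gates and the early cells by the label GFPP. The part of this sorting in the differences of the surface genes Procr, Ly6a, Cd34, Flt3 and Cd48 was not tested. Interferon-induced genes rose in 12 of 27 with a median of 1.40, and heat shock genes in 4 of 19 with a median of 0.30. The macrophage list rose in 9 of 20 with a median of 2.26, among them Hmox1 (4.49, adjusted p = 6.38e-05), and Erdr1 fell (-4.9). Called genes numbered 208 without L80, 199 without L83 and 185 without L84, against 361 with all.

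Within predicted types, early cells were compared with steady state cells of any gate that carried the same predicted type. The fit used 44 sums of tHSC, tMPP1, tMPP2 and tMPP5 cells and again shares the early libraries. An early library could give more than 1 sum, which this fit treats as independent. Of 14604 genes tested, 998 were higher (6.83%) and 397 lower (2.72%), and the median was -0.05. With the library as a random block in limma's voom (correlation within library 0.125), 1349 were higher and 219 lower, and 1053 of the 1395 calls were shared. Interferon-induced genes rose in 16 of 27, with a median of 1.58, and none fell. Irf7 differed by 2.6 (adjusted p = 1.45e-06), the ubiquitin-like modifier gene Isg15 by 3.6 (adjusted p = 6.11e-05) and the GTPase gene Iigp1 by 2.93 (adjusted p = 1.11e-05). Macrophage genes rose in 14 of 23 with a median of 3.08. With the block the counts were 15 of 27 and 14 of 23. Genes of other cell types rose as well, namely 6 of 14 of the stromal and endothelial list and 3 of 11 B cell genes. So did 3 of 9 T cell and 3 of 7 NK cell genes. In the stromal and NK cell lists 1 gene each fell. With the block 7 stromal, 1 B cell, 2 T cell and 1 NK cell genes rose.

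Cell cycle genes differed little within type, a comparison that cannot show differences carried by the type itself. Predicted type was assigned from expression, and 57.6% of early tMPP1 but 98.8% of early tMPP2 cells had the G2/M genes. Of 30 G2/M genes, Racgap1 rose (1.29, adjusted p = 0.0457) and Cks2 fell (-0.74, adjusted p = 0.0425), with a median of -0.06. With the library block Racgap1 turned to -0.23 (adjusted p = 0.777), and 3 G2/M genes fell and none rose, with a median of -0.44. Of 30 G1/S genes none was called in either fit, with a median of 0.20. Identity genes that rose within type were Procr (2.62), Ly6a (2.26), Mecom (1.27), Mllt3 (0.89) and Ifitm3 (0.65), 5 of 30, and none fell. With the block 5 rose and 1 fell, and Mecom (adjusted p = 0.0573) and Mllt3 (adjusted p = 0.679) missed the threshold. Of 22 immediate early genes 4 fell (Fos, Fosb, Jund and Btg2) and 2 rose (Dusp2 and Cyr61), with a median of -0.57. With the block only Jund and Btg2 of these 6 passed. The early side had 6 sums each of tMPP1 and tMPP2 but 1 sum each of tHSC and tMPP5, so these values rest mainly on the first 2 types.

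Day 1 and day 3 were set against iHSC in 1 fit with 4 levels over 12758 genes. On day 1, with the 2 libraries L83 and L84, 43 genes were higher (0.337%) and 6 lower (0.0470%). On day 3, with the 3 libraries L79, L85 and L89, 18 were higher (0.141%) and 9 lower (0.0705%). Birc5 stood 2.32 above iHSC on day 1 (adjusted p = 0.0892) and 2.84 on day 3 (adjusted p = 0.00993), and Ccnb2 2.1 (adjusted p = 0.301) and 3.58 (adjusted p = 0.00503). Fos was called on both days (-3.88 and -2.8), as were C1qc (6.25 and 5.15), Cish (-3.52 and -3.48) and Erdr1 (-4.81 and -4.38). Hmox1 was called on day 1 (4.97, adjusted p = 0.00343) and missed the threshold on day 3 (3.14, adjusted p = 0.0653).

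A direct test of day 3 against day 1 called 0 of 12758 genes (0%) with edgeR, 209 at an unadjusted p under 0.05, and 5 with DESeq2. None of the differences between the days named above is therefore shown by this test. The receptor phosphatase gene Ptprf, the largest rise on day 1, was at 94.4 CPM in L83 and 2.94 CPM in L84, and L83 held 8 cells. Without L83, 1 gene was called on day 1, and without L85, 0 were called on day 3. On day 3, 12 were called without L79 and 6 without L89. DESeq2 called 28 higher and 62 lower on day 1, and 54 higher and 120 lower on day 3.

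Of the 63 called genes named by rule in the comparison with iHSC, the alternatives gave 2219 values, of which 1974 kept direction and call. The calls of C1qc, Cd5l, Ncapg, Aspm, Cep55 and Hist1h1d held in every alternative that could be computed for them. Those of Chad, Runx1t1, Fxyd1 and Pygm, which were among the largest falls, ended in 6 to 14 of 19 fits without 1 library. The immediate early genes Junb, Ier2, Btg2 and Fosb and the stem cell gene Hlf lost their calls when all annotated transplanted cells of the early libraries were summed.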

How the data were processed

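Single cells were profiled by a modified Smart-seq2 protocol that reads the 3' ends of mRNA, per the labels' protocols. The authors deposited whole-number counts per gene and cell without normalization, for 23154 genes and 2879 cells, and nothing in the labels tells if these are reads or molecules. Per the submitters' processing notes, TopHat aligned the reads to mm10 and HTSeq assigned them to genes; versions are not given in the sources used here. The deposited annotation gave each cell's origin, gate and predicted type. A further 578 cells lacked an annotation and were not used. No mitochondrial gene was in the table (0), no cell columns were identical (0), and 95 of the 96 within-library cell names recurred across libraries, while barcode sequences were not analysed here.

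Counts were summed per library and group and tested with edgeR 4.0.16 (R 4.3.3; filterByExpr, TMM, glmQLFit and glmQLFTest, Benjamini-Hochberg adjusted p under 0.05), with only the groups of a comparison in its fit. The fit of origin within type had the predicted type as covariate, and the fit by day had 4 levels. Shares of cells were computed after thinning each cell to 20000 counts and tested by two-sided exact permutation over libraries. The fit was tested on simulated data with known changes. Alternatives used DESeq2 1.42.0, limma 3.58.1, other filters, cell sets and libraries; the Y-linked covariate, the fits without L1, L14 and L15, plain voom and a second thinning draw were added after the data were seen.

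The members, gene lists and comparisons were chosen with earlier results of these data known. Genes were named by rule: the 12 largest called changes each way with a mean of at least 20 CPM in the higher group, up to 4 called members of each list with the smallest p, up to 2 for lists without a call, and 20 fixed stem and progenitor genes, with the 4 largest changes each way in the other comparisons. Other names complete a list's called members or were chosen after their values were seen, such as Jun, Cdkn1a, Cdkn1b, Adgre1, Mertk, Timd4, Isg15, Iigp1, Hspa1a and Hspa8. Gene positions came from the GENCODE vM21 annotation of GRCm38, which corresponds to the mm10 build, and promoters from RefSeq GRCm38.p6.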

Additional observations from a re-analysis of the deposited data

Results flagged for a closer look

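Among the 7 early libraries, 144 groups of values were examined for a single library far from the others, and 16 had one. The limit is passed by about 1 in 20 groups of normally distributed values, a rate that does not hold for genes mostly at 0. Some genes, such as Ptprf, were also named for a change that the same library carried. The number flagged is therefore not set against chance. L80 was furthest for 5 genes. It held Mylk4 at 126 CPM (others at most 6.43), Pecam1 at 8.00 CPM (others at least 25.5), Elane at 11 CPM, Chad at 1.51 CPM and Dmkn at 0.453 CPM. The last 3 were at or under 0.368 CPM in the other libraries. L83, with 8 cells, held Ptprf at 94.4 CPM (others at most 2.94), Egr1 at 346 CPM (others at most 123) and Lck at 0 CPM (others at least 6.17), and 75% of its cells had the G1/S genes (others at least 95.2%). L84 held Ccnb2 at 13.2 CPM, against at least 110.0 in the others.

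L88 held Car1 at 16.2 CPM (others at most 2.21) and a summed mast cell, basophil and eosinophil level of 4237.5 CPM (others at most 706). L79 held Dntt at 0.862 CPM (0 in the others) and a summed antioxidant level of 8263 CPM (others at most 6973). L85 held Cd79b at 19.9 CPM (others at least 36.0), and L89 a summed megakaryocyte level of 2132 CPM (others at most 966).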

How the results depend on the processing

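Early against iHSC gave 291 called genes with all choices as stated. Alternatives gave 619 with DESeq2 (35.4% higher), 1302 without a filter on low counts (73.8% higher), 882 with plain limma voom (75.3% higher), 1489 with limma on mean log2 values (91.7% higher), 673 with day 5 and day 7 sums in the fit, 625 with iHSC libraries from L73 on, 449 without L1, L14, L15 and L81, and 23 in tHSC cells only. Of these 23, 10 were among the 291. Leaving out 1 library gave 194 to 353. The Y-linked covariate gave 203 (38.4% higher). Early against iMPP gave 361, 2839 without the filter, and 185 to 290 without 1 early library (208 without L80, 199 without L83, 185 without L84). Day 1 against iHSC gave 49, 90 with DESeq2 and 1 to 39 without 1 library. Day 3 gave 27, 174 with DESeq2 and 0 to 12 without 1 library (6 without L89). Day 3 against day 1 gave 0, 5 with DESeq2, and 0 without any 1 library. Origin within type gave 1395, 2273 without the filter, and 1568 with the library as a random block (86% higher, 1053 shared). Without thinning, the difference in shares was 7.39 points for G2/M (exact p = 0.593) and 1.35 for G1/S (exact p = 0.772). In other settings it was 27.7 to 46.4 and 7.59 to 26.6 points. The sign turned for Ccnb2 (-0.82), Birc5 (-0.30) and Mki67 (-1.86) in tHSC cells only, and for Nkg7 (2.22) with plain voom. The cause of these changes was not tested, except that fewer cells or samples entered some fits. Of 63 called genes named by rule, 242 of 2219 alternative values missed the threshold. Among 41 uncalled ones, 117 of 1464 values passed it, and 83 changed sign with no call in either. A voom fit with the library as block could not be fitted to early against iHSC, since each library gives 1 sum. No paired analysis was possible because replicate numbers were given in accession order and pair no samples. Precision is limited by 7 early libraries, by 21 tHSC cells and by sums as small as 517741 counts.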

Other observations

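Within predicted type, some genes of antigen presentation were higher and some genes of the megakaryocyte and erythroid lineages lower in early cells than in steady state cells. Against iHSC, 1 antigen presentation gene rose, no megakaryocyte gene was called and 2 of 10 erythroid genes fell. Against iMPP, 5 of 9 antigen presentation genes rose and 1 fell, 4 of 15 erythroid genes fell, and no megakaryocyte gene was called. Of 13 tested genes of the dendritic cell and antigen presentation list, 6 rose and none fell, with a median of 1.66. They included the MHC class II genes H2-Aa (2.46, adjusted p = 0.00126), H2-Ab1 (1.29, adjusted p = 0.00822) and H2-Eb1 (2.27, adjusted p = 0.0182), and Cd74, which encodes their invariant chain (3.11, adjusted p = 0.000383). With the library as a random block in limma's voom 4 of the 13 rose, and H2-Aa (adjusted p = 0.0839) and H2-Eb1 (adjusted p = 0.112) missed the threshold. Against iHSC the same 4 genes differed by 0.21, 0.3, 0.24 and -1.09, none of them past the threshold. Cd74 was at 115 to 639 CPM in the 7 early and 45.2 to 1662 CPM in the 12 iHSC libraries, so the ranges overlapped.

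Of 20 megakaryocyte genes, 8 were lower within type and none was higher, with a median of -1.34. They included Pf4, a platelet chemokine (-2.92, adjusted p = 0.00101), Itga2b, which encodes CD41 (-2.07), and Vwf, the von Willebrand factor (-2.85). With the library block 9 were lower, these 3 among them. Of 17 erythroid genes, 7 were lower and none higher, with a median of -1.82, among them the factor Klf1 (-5.1, adjusted p = 0.00133) and Car1 (-6.2). With the library block 2 were lower and 1 higher, and neither Klf1 (adjusted p = 0.0753) nor Car1 (adjusted p = 0.115) passed. The names in this part were chosen after their values were seen, and the steady state side of the fit held sums from several gates.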
